A study of Mus musculus with 6 samples.

Results

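Dual-specificity phosphatase genes were followed in IgM+ B cells, sorted from bone marrow, of mice with altered Ikaros, the zinc finger transcription factor encoded by Ikzf1. The members were the rows of the deposited RPKM table named Dusp1, Dusp2, Dusp3, Dusp4, Dusp5, Dusp6, Dusp7 and Dusp10, 8 of 22098 gene names, and each had a single transcript in the table. All 8 had a mean of at least 1 RPKM over the 6 libraries and were among the 10322 genes tested. The unit, RPKM, corrects read numbers for transcript length and for library size, so levels can be compared between genes. There were 2 libraries from Ikaros ZnF1-/- mice, which lack zinc finger 1 of Ikaros, 2 from Ikaros ZnF4-/- mice, which lack zinc finger 4, and 2 from wild-type mice. All were of the C57BL/6 background and 6 weeks of age, and none is labelled as treated. The labels do not say that replicates came from separate animals or whether animals were pooled. Each p-value therefore reflects the spread of these libraries alone, which in wild type may be technical. In each mutant replicate 1 held RNA of Xist, expressed from an inactive X, and replicate 2 held RNA of the Y-linked Ddx3y. The 2 libraries of a mutant thus came from animals of different sex, and their spread includes that difference. In RNA of a sorted population, fewer cells of a type and less RNA per cell cannot be told apart.

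MAP kinases (ERK, JNK and p38) carry signals from the antigen receptor and other surface receptors to the nucleus once they are phosphorylated on a threonine and a tyrosine. Dual-specificity phosphatases of the MAP kinase phosphatase class remove both phosphates and so switch the kinases off. Several of their genes are themselves induced by MAP kinase signalling, which makes them a negative feedback arm of the pathway. In lymphocytes they are known as limits on receptor signalling. Dusp1, Dusp2, Dusp4 and Dusp5 encode nuclear enzymes, Dusp6 and Dusp7 cytoplasmic enzymes that prefer ERK, and Dusp10 an enzyme that prefers JNK and p38. Dusp3 encodes a small atypical phosphatase, also called VHR, that lacks the kinase-binding domain of the others.

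The members do not form a gene cluster: they lie on 8 different mouse chromosomes, Dusp10 on chromosome 1, Dusp2 on 2, Dusp4 on 8, Dusp7 on 9, Dusp6 on 10, Dusp3 on 11, Dusp1 on 17 and Dusp5 on 19. Promoter windows of 300 bases, from 250 before to 50 after the annotated start, were matched by symbol for 7 of the 8 members in RefSeq's table for GRCm38.p6, a build other than the mm9 assembly of the deposited values. The windows of the 4 members that fell in the ZnF4 mutant are shown because they carry the main result, with that of Dusp1, whose adjusted p lay nearest to the threshold among the others in that comparison. Capitals mark GGGAA, a core of Ikaros binding sites (TTCCC on the other strand), TGACGTCA, the cyclic AMP response element, CACGTG, an E-box, and the CArG box bound by serum response factor, all searched on both strands. Dusp2 is shown from chr2:127335909-127336208 (+ strand), Dusp3 from chr11:101984742-101985041 (- strand), Dusp5 from chr19:53528895-53529194 (+ strand), Dusp10 from chr1:184034131-184034430 (+ strand) and Dusp1 from chr17:26508423-26508722 (- strand).
Dusp2: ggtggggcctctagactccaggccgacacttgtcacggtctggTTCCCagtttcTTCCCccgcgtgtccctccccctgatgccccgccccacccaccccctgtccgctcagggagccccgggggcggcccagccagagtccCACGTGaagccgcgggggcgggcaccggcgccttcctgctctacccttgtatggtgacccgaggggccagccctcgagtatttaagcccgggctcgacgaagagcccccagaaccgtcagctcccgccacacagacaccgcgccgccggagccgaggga
Dusp3: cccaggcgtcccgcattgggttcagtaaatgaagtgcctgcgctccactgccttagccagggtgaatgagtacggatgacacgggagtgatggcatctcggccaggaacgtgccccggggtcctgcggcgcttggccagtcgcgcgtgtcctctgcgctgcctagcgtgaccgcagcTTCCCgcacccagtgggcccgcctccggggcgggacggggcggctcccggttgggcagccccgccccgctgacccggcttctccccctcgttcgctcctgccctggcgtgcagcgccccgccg
Dusp5: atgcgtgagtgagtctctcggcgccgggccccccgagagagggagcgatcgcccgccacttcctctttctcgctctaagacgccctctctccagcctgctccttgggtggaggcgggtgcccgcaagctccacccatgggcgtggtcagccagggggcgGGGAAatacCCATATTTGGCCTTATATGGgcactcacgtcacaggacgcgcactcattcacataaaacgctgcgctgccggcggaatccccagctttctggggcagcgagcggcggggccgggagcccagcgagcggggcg
Dusp10: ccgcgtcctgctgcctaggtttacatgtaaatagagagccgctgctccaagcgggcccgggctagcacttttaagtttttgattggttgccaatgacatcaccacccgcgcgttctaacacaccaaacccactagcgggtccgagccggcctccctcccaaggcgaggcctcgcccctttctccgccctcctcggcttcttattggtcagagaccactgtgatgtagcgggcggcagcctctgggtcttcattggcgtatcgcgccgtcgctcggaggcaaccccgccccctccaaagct
Dusp1: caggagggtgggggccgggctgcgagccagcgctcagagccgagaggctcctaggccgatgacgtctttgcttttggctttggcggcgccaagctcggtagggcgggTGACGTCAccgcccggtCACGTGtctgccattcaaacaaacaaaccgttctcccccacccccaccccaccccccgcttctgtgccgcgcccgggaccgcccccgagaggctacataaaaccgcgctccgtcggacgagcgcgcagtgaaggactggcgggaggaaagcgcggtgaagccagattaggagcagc

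The Dusp2 window held 2 matches to GGGAA and 1 to CACGTG, the Dusp3 window held 1 to GGGAA, and the Dusp5 window held 1 to GGGAA. The Dusp5 window also held 2 CArG boxes that adjoin, with first bases at positions -82 and -72 from the start. The Dusp1 window held 1 match to TGACGTCA, at position -143, and 1 to CACGTG. None of these motifs was found in the windows of Dusp10, Dusp6 and Dusp7. Among all 32851 promoter windows of this length, 62.7% held GGGAA, 7.15% held CACGTG, 1.79% held TGACGTCA and 1.63% held a CArG box. A match is a description of the letters and was not tied to binding here.

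The 7 B cell markers summed to between 4541 and 5506 RPKM over the 6 libraries. Of these 7 markers 7 were negative in ZnF1 against wild type, as were 5200 of all 10322 tested genes. In ZnF4 6 of 7 were negative, as were 52.8% of all tested genes. By limma 0 passed in either mutant, where 0.271% of all tested genes were called in ZnF1 and 3.20% in ZnF4. At an unadjusted p under 0.05 there were 2 in ZnF1 and 1 in ZnF4, against 11.9% and 17.4% of all tested genes. The B cell factor gene Ebf1 was at 73.4 and 59.7 RPKM in ZnF1, 70.7 and 78.7 in ZnF4, and 93.9 and 108 in wild-type libraries, and Pax5 was at 235 and 194, 252 and 293, and 297 and 442 in the same order. Markers of other cells differed between libraries as well. The 8 T and NK cell markers summed to 9.0 and 17.4 RPKM in ZnF1, 6.5 and 7.5 in ZnF4, and 4.4 and 8.2 in wild-type libraries. The 6 plasma cell markers summed to 70.8 and 57.1 RPKM in ZnF1, 144 and 138 in ZnF4, and 513 and 79.3 in wild-type libraries, and 1 of the 4 tested, Sdc1, was called lower in ZnF1 (-2.24, adjusted p = 0.0347). The 8 erythroid markers summed to 585 RPKM in ZnF1 replicate 2 and to between 85.7 and 217 in the other libraries. The part of these lists in the members' values was not tested. The summed level of 20 granulocyte and monocyte markers was 1568 and 8510 RPKM in ZnF1 replicates 1 and 2, 1922 and 2126 in ZnF4 libraries, and 509.5 and 813.5 in wild-type libraries, and none of the 20 was at 0 in all libraries. Of the 19 tested, 19 lay above wild type in ZnF1 and 18 in ZnF4, with median log2 fold changes of 2.28 and 1.51, and their part in the members' values was not tested beyond the fits with a marker term given below. The sexes of the libraries differed too: Xist, expressed from an inactive X, had no signal in either mutant's replicate 2 (listed at 0) and lay between 39.6 and 66.8 RPKM in the other 4 libraries, and the Y-linked Ddx3y was at 20.4 RPKM in ZnF1 replicate 2, at 16.6 in ZnF4 replicate 2 and listed at 0 elsewhere. Ikzf1 was at 201 and 168 RPKM in ZnF1, 287 and 244 in ZnF4, and 177 and 179 in wild-type libraries, and a value per transcript cannot show whether a finger was missing.

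Dusp2, first described in activated lymphoid cells, was by far the highest of the 8 genes, and it fell in the ZnF4 mutant. It was at 182 and 159 RPKM in ZnF1 libraries, 80.5 and 93.6 in ZnF4 libraries, and 234 and 198 in wild-type libraries. The 3 genotypes did not overlap, and both ZnF4 libraries were the lowest. Dusp2 lay above 98.0% of the tested genes by its mean over the 6 libraries, and Dusp4 above 12.6%. In wild type the order by mean RPKM was Dusp2, Dusp6, Dusp10, Dusp5, Dusp1, Dusp3, Dusp7 and Dusp4. Within that order the libraries of Dusp6 and Dusp10 overlapped, as did those of Dusp1, Dusp3 and Dusp7. Dusp2, Dusp6 and Dusp10 led and Dusp4 was last in both mutants as well. By mean RPKM Dusp3 followed Dusp10 in ZnF1, whereas in ZnF4 it lay just above Dusp4. The 8 genes summed to 318 and 266 RPKM in ZnF1, 183 and 178 in ZnF4, and 402 and 346 in wild-type libraries, and Dusp2 alone made up 57.4% and 59.6%, 44.0% and 52.5%, and 58.1% and 57.0% of these sums in the same order.

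**Figure D1:**
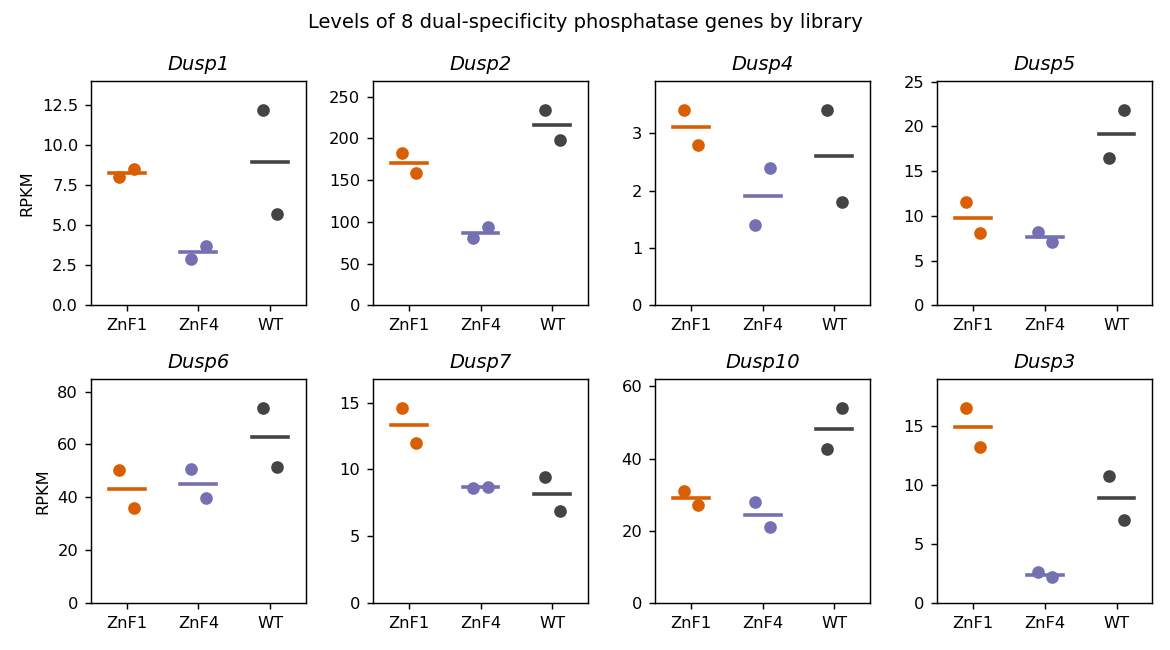
RPKM (vertical axes, each from 0) of the 8 dual-specificity phosphatase genes in ZnF1, ZnF4 and wild-type (WT) libraries; each point is a library and each line the mean of 2 libraries. Both ZnF4 libraries lie below both wild-type libraries for Dusp1, Dusp2, Dusp3, Dusp5, Dusp6 and Dusp10, and Dusp3 is highest in ZnF1 libraries.

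To ask which of these genes differed in the ZnF4 mutant, ZnF4 libraries were set against wild type. Of the 8 genes 4 fell: Dusp2, Dusp3, Dusp5 and Dusp10, with ratios of the ZnF4 to the wild-type mean between 0.271 and 0.507. None rose. Among all tested genes 3.20% were called, 1.41% lower and 1.78% higher. At an unadjusted p under 0.05, 5 of 8 members lay below wild type, against 9.20% of all tested genes. The median log2 fold change of the 8 genes was -1.10, against -0.02 over all tested genes, and 7 of 8 were negative, as were 52.8% of all tested genes. The libraries of 6 of 8 members lay wholly below wild type, as did those of 27.2% of all tested genes. Fold changes are differences on the log2(RPKM + 0.5) scale, which understates the changes of weakly expressed genes.

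Among the nuclear phosphatases, Dusp2 had a log2 fold change of -1.30 (SE 0.16, adjusted p = 0.00821) with limma. Dusp5, an enzyme that prefers ERK, was at 8.2 and 7.1 RPKM in ZnF4 libraries, against 16.5 and 21.8 in wild-type libraries. Its log2 fold change was -1.26 (SE 0.21, adjusted p = 0.0242), and both ZnF4 libraries lay below both wild-type ones. Dusp1, an immediate early gene whose product acts on p38, JNK and ERK, was at 2.9 and 3.7 RPKM in ZnF4 libraries, against 12.2 and 5.7 in wild-type libraries. The groups did not overlap, but the wild-type libraries stood over 2-fold apart, and the log2 fold change of -1.23 (SE 0.31, adjusted p = 0.0947) did not pass. Without wild-type replicate 1 it was -0.71. A list of 23 immediate early genes summed to 684 and 682 RPKM in ZnF4 libraries, against 1132 and 747 in wild-type replicates 1 and 2, so that its sum was highest in the library where Dusp1 was highest. Their part in the Dusp1 values was not tested. Dusp4 was at 1.4 and 2.4 RPKM in ZnF4 libraries, against 3.4 and 1.8 in wild-type libraries, which overlapped. Its log2 fold change of -0.35 had a 95% interval from -1.11 to 0.40.

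Dusp10 was at 27.9 and 21.0 RPKM in ZnF4 libraries, against 42.5 and 54.0 in wild-type libraries, and it fell by 0.97 on the log2 scale (SE 0.18, adjusted p = 0.0367). Dusp3 had the largest fall of the 8: it was at 2.6 and 2.2 RPKM in ZnF4 libraries, against 10.7 and 7.0 in wild-type libraries, with a log2 fold change of -1.66 (SE 0.22, adjusted p = 0.0116). Both ZnF4 libraries of each gene lay below both wild-type ones. The cytoplasmic ERK phosphatases did not pass. Dusp6, whose transcription is a common readout of ERK activity, was at 50.8 and 39.6 RPKM in ZnF4 libraries, against 73.8 and 51.6 in wild-type libraries, with a log2 fold change of -0.46 (95% interval -1.0 to 0.09, adjusted p = 0.368). The nearest libraries were at 50.8 RPKM in ZnF4 and 51.6 in wild type, closer to each other than the 2 libraries of either group. Dusp7 was at 8.6 and 8.7 RPKM in ZnF4 libraries, inside the wild-type values of 9.4 and 6.9, and its log2 fold change of 0.10 had a 95% interval from -0.32 to 0.52.

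**Figure D2:**
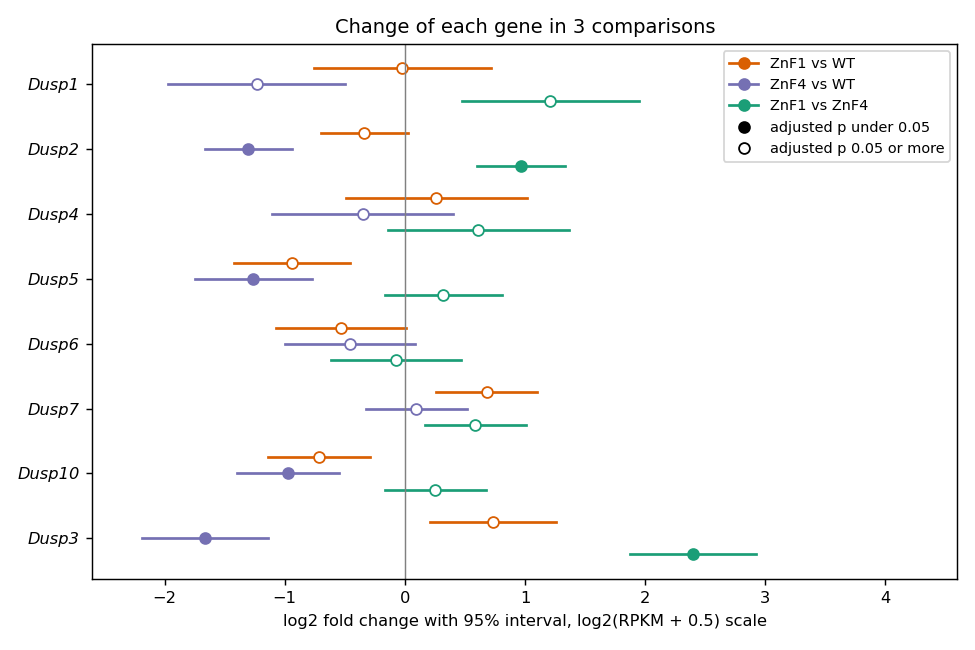
Log2 fold change of each gene (horizontal axis, log2(RPKM + 0.5) scale) with its 95% interval from limma for ZnF1 against wild type, ZnF4 against wild type and ZnF1 against ZnF4; filled points have an adjusted p under 0.05. Dusp2, Dusp3, Dusp5 and Dusp10 are filled for ZnF4 against wild type, 0 genes are filled for ZnF1 against wild type, and Dusp2 and Dusp3 are filled for ZnF1 against ZnF4.

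The direction of the 4 falls held with any single library left out, but 0 of the calls held without a ZnF4 or wild-type library. Without 1 ZnF4 or 1 wild-type library in turn (ZnF4 replicate 1, ZnF4 replicate 2, wild-type replicate 1, wild-type replicate 2), the log2 fold change lay between -1.42 and -1.18 for Dusp2, -1.95 and -1.37 for Dusp3, -1.46 and -1.06 for Dusp5, and -1.17 and -0.77 for Dusp10. Each of these fits leaves 1 library in a group. Calls over all tested genes fell in each as well, so the loss was not particular to the members. Testing all 22098 names with no filter on low values also left 0 calls (5 at an unadjusted p under 0.05), with adjusted p between 0.0816 for Dusp2 and 0.241 for Dusp10. Without ZnF4 replicate 2, so that every ZnF4 and wild-type library held Xist RNA, the log2 fold changes were -1.41 for Dusp2, -1.56 for Dusp3, -1.16 for Dusp5 and -0.77 for Dusp10. With a term for Xist in the fit, Dusp5 (-1.09, adjusted p = 0.0607) and Dusp10 (-0.82, adjusted p = 0.0934) no longer passed. With a term for the granulocyte and monocyte marker level all 4 were still called. Dusp10 alone also missed the threshold with quantile normalization (adjusted p = 0.0630) and without an intensity trend (0.0650).

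**Figure D3:**
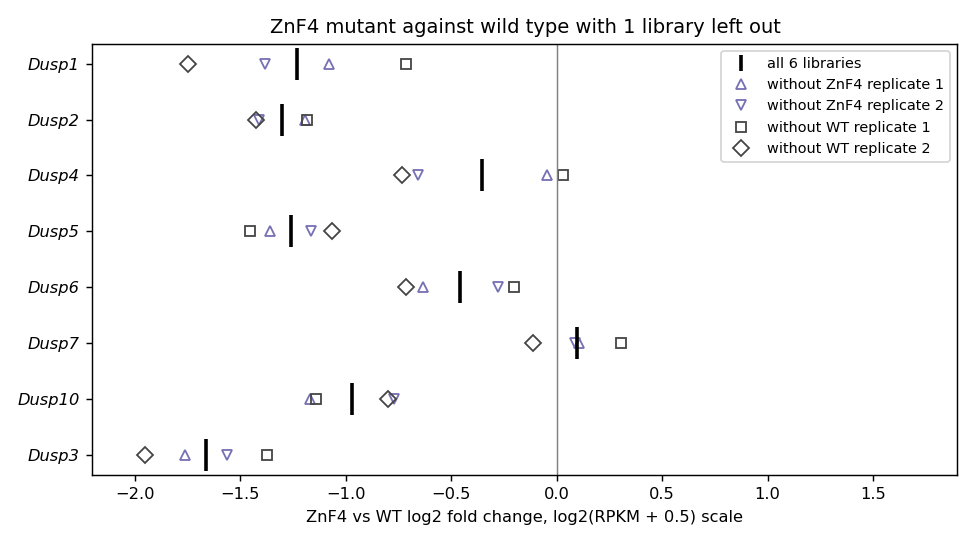
ZnF4 against wild type: log2 fold change of each gene (horizontal axis, log2(RPKM + 0.5) scale) from all 6 libraries (bars) and with 1 of the 4 compared libraries left out (symbols). Dusp1, Dusp2, Dusp3, Dusp5, Dusp6 and Dusp10 stay below 0 in each, and Dusp4 and Dusp7 cross 0.

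To ask which of the genes differed in the ZnF1 mutant, ZnF1 libraries were set against the same 2 wild-type libraries. By limma 0 of 8 members passed, where 0.271% of all tested genes were called (0.0969% higher and 0.174% lower). At an unadjusted p under 0.05 there were 4 of 8, Dusp3 and Dusp7 above wild type and Dusp5 and Dusp10 below it, against 11.9% of all tested genes. Libraries did not overlap for 6 of 8 members, against 41.5% of all tested genes: 2 lay above wild type, against 21.1%, and 4 below, against 20.3%. The median log2 fold change was -0.18, against -0.0019 over all tested genes.

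Dusp5 was at 11.5 and 8.1 RPKM in ZnF1 libraries, both below the wild-type values of 16.5 and 21.8, with a log2 fold change of -0.94 (SE 0.21, adjusted p = 0.150). Without ZnF1 replicate 1 it was at -1.18 (adjusted p = 0.0221), and with any other library left out 0 members passed by limma (3 to 4 at an unadjusted p under 0.05). That fit rests on ZnF1 replicate 2 alone, the library with the marker sum of 8510 RPKM, which is assumed to vary like the other groups, and it called 512 of all 10322 genes, against 28 with all libraries. Dusp10 was at 30.9 and 27.2 RPKM in ZnF1 libraries, below 42.5 and 54.0 in wild-type libraries (log2 fold change -0.71, adjusted p = 0.195). Dusp6 was at 50.4 and 35.9 RPKM in ZnF1 libraries, below 73.8 and 51.6 in wild-type libraries (-0.53, adjusted p = 0.435), and Dusp2 had a log2 fold change of -0.34 (95% interval -0.70 to 0.03). For these 4 genes both ZnF1 libraries lay below both wild-type ones, although for Dusp6 the nearest were at 50.4 and 51.6 RPKM. With a term for the granulocyte and monocyte marker level their log2 fold changes were -0.64 for Dusp5, -0.63 for Dusp10, -0.14 for Dusp2 and -0.012 for Dusp6. With 1 library left out Dusp6 ranged from -0.79 (wild-type replicate 2 left out) to -0.28 (wild-type replicate 1 left out).

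On the other side, Dusp3 was at 16.5 and 13.2 RPKM in ZnF1 libraries, above 10.7 and 7.0 in wild-type libraries (log2 fold change 0.74, SE 0.22, adjusted p = 0.253). Dusp7 was at 14.6 and 12.0 RPKM in ZnF1 libraries, above 9.4 and 6.9 in wild-type libraries (0.68, SE 0.18, adjusted p = 0.208). Both genes were separated from wild type in the direction of a higher level without passing the test. With the marker term they were at 1.13 (adjusted p = 0.286) and 0.99 (0.263). Dusp1 was at 8.0 and 8.5 RPKM in ZnF1 libraries, between the wild-type values of 12.2 and 5.7, and Dusp4 was at 3.4 and 2.8 RPKM, against 3.4 and 1.8 in wild-type libraries. Their 95% intervals ran from -0.76 to 0.71 and from -0.49 to 1.01. ZnF1 replicates 1 and 2 had granulocyte and monocyte marker sums of 1568 and 8510 RPKM. Between these 2 libraries 0 of 8 members and 460 of all 10322 tested genes stood over 2-fold apart. That share is too small for 0 of 8 to set the members apart. The part of the marker level was not tested beyond the fits with a marker term.

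The direct comparison asks whether the mutants differed from each other, which the calls against wild type cannot answer. Dusp3 and Dusp2 were higher in ZnF1 libraries and 0 of 8 members were lower, where 4.78% of all tested genes were called, 2.08% higher and 2.69% lower. At an unadjusted p under 0.05, 4 of 8 members were higher, against 10.6% of all tested genes. The mutants did not overlap for 5 of 8, all higher in ZnF1, against 46.8% of all tested genes in either direction and 25.8% higher. Dusp3, at 16.5 and 13.2 RPKM in ZnF1 and 2.6 and 2.2 in ZnF4 libraries, differed by 2.40 on the log2 scale (SE 0.22, adjusted p = 0.00283), a ratio of means of 6.19. Dusp2 differed by 0.97 (SE 0.16, adjusted p = 0.0183), with 182 and 159 RPKM in ZnF1 and 80.5 and 93.6 in ZnF4 libraries. Both lost the call with no filter on low values (adjusted p = 0.0624 for Dusp3 and 0.117 for Dusp2). They also lost it without ZnF4 replicate 1 or ZnF4 replicate 2, fits that leave 1 library in a group. Calls over all tested genes fell in these fits as well. With any single library left out the difference lay between 2.24 and 2.55 for Dusp3 and between 0.86 and 1.07 for Dusp2. Dusp3 lay below wild type in the ZnF4 mutant, where the test passed, and above it in the ZnF1 mutant, where it did not, and the test of the difference between the mutants passed.

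Dusp1, at 8.0 and 8.5 RPKM in ZnF1 and 2.9 and 3.7 in ZnF4 libraries, had the next largest difference (1.21, SE 0.31, adjusted p = 0.0787). It was called in the fit of only the 2 mutants (adjusted p = 0.0387), and also without wild-type replicate 1 (0.0371) or wild-type replicate 2 (0.0351). Dusp7 had a difference of 0.59 (adjusted p = 0.123), and with a term for the granulocyte and monocyte marker level Dusp1 (adjusted p = 0.0409) and Dusp7 (0.0385) passed as well. For Dusp5, Dusp6 and Dusp10 the mutants overlapped. The 95% intervals of their differences were -0.17 to 0.81, -0.62 to 0.47 and -0.17 to 0.68, so differences as large as these bounds were not distinguished from none. Dusp4 did not overlap, at 3.4 and 2.8 RPKM in ZnF1 and 1.4 and 2.4 in ZnF4 libraries, and did not pass (0.61, adjusted p = 0.349).

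The members did not share 1 pattern over the 6 libraries. When each gene's log2 values were centred on their own mean, the pair closest to each other was Dusp5 and Dusp10, with a root mean square difference of 0.16 log2 units, followed by Dusp1 and Dusp2 with 0.28 and Dusp4 and Dusp7 with 0.29. The pair furthest apart was Dusp3 and Dusp6 with 1.01. Dusp2, Dusp5, Dusp6 and Dusp10 were lower in all 4 mutant libraries than in both wild-type libraries. For Dusp6 the nearest were at 50.8 RPKM in ZnF4 and 51.6 in wild type. Of all tested genes 20.3% lay wholly below wild type in ZnF1 and 27.2% in ZnF4. Both shares use the same 2 wild-type libraries, and the share below in both mutants at once was not computed. Dusp1, Dusp2 and Dusp3 had their lowest levels in the ZnF4 libraries.

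Among 8707 tested genes with a mean of at least 3 RPKM, those whose pattern lay nearest to each called member were named, as a description over 6 libraries that share their wild-type controls. Nearest to Dusp2 were Rnf144a (0.11 log2 units), Brwd1 (0.12), Bhlhe40 (0.13), Tmem66 (0.14) and Leprotl1 (0.14). Rnf144a, a ubiquitin ligase gene, was at 19.6 and 17.6 RPKM in ZnF1, 7.5 and 10.8 in ZnF4, and 22.9 and 19.2 in wild-type libraries. Nearest to Dusp3 were Smad1 (0.15), Pear1 (0.21), Irf7 (0.30), D8Ertd82e (0.30) and Unc5cl (0.31). Smad1, a transducer of bone morphogenetic protein signals, was at 9.8 and 9.0 RPKM in ZnF1, 1.5 and 1.4 in ZnF4, and 5.6 and 5.1 in wild-type libraries. That it shared the order of Dusp3 in all 3 genotypes follows from its choice by nearness to Dusp3. Nearest to Dusp5 were Sufu (0.09), a regulator of hedgehog signalling, Arvcf (0.13), Dusp10 itself (0.16), Csrp2 (0.18) and Otud1 (0.20). Nearest to Dusp10 were Klhl14 (0.11), Ptger4 (0.12), a prostaglandin receptor gene, Cd24a (0.13), Aldh2 (0.13) and Arvcf (0.14).

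The rest of the MAP kinase system was described by 8 lists with 125 genes, of which 105 were tested. In the ZnF4 mutant 1 of 105 rose and 3 fell, where 1.78% and 1.41% of all tested genes did, and at an unadjusted p under 0.05 there were 6 above and 14 below wild type, against 8.23% and 9.20% of all tested genes, with a median log2 fold change of -0.15. The members' median of -1.10 stood beside medians from -0.41 to 0.05 for the 8 lists. In the ZnF1 mutant 0 of 105 passed by limma, and 10 lay above and 9 below wild type at an unadjusted p under 0.05, against 6.48% and 5.45% of all tested genes. Between the mutants 4 of 105 were higher in ZnF1 and 2 lower, where 2.08% and 2.69% of all tested genes were, and 19 and 9 at an unadjusted p under 0.05, against 10.6% and 9.37% of all tested genes. Without any 1 of the ZnF4 or wild-type libraries (replicates 1 and 2 of each), all pathway calls in ZnF4 were lost. Calls over all tested genes fell in each of these fits as well. All pathway calls between the mutants were lost without ZnF4 replicate 1 or ZnF4 replicate 2, where calls over all tested genes fell too. Without ZnF1 replicate 1, calls in ZnF1 against wild type rose for pathway genes and for all tested genes. Each of these fits leaves 1 library in a group.

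Further phosphatases were set beside the shares over all tested genes. Of 3 further MAP kinase phosphatases 1 was tested, Dusp16, which acts on JNK and p38. Its level was 5.6 and 5.1 RPKM in ZnF1, 5.1 and 5.5 in ZnF4, and 6.5 and 5.6 in wild-type libraries, and no comparison passed. Of 14 atypical dual-specificity phosphatases 6 were tested and 0 passed by limma, with 1 at an unadjusted p under 0.05 in ZnF4 and 1 between the mutants. Both were of Dusp12, at 5.0 and 6.0 RPKM in ZnF1, 8.8 and 8.8 in ZnF4, and 5.3 and 5.1 in wild-type libraries, with a log2 fold change of 0.71 in ZnF4 (adjusted p = 0.0576). Dusp19 was at 3.5 and 2.3 RPKM in ZnF1, 3.1 and 4.0 in ZnF4, and 3.6 and 4.5 in wild-type libraries. Of 8 other phosphatases that act on MAP kinases 6 were tested and 0 passed by limma, with 0 at an unadjusted p under 0.05 in any comparison. Those with the smallest p were Ppp2ca, the catalytic subunit gene of protein phosphatase 2A (log2 fold change -0.29 in ZnF4, adjusted p = 0.380), and Ppm1d (-0.29, adjusted p = 0.420).

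Among the 19 genes of the Ras-ERK cascade, all tested, Rasgrp3 rose in the ZnF4 mutant and 18 did not pass. Over all tested genes 1.78% were called higher and 1.41% lower there. At an unadjusted p under 0.05, 2 of 19 lay above and 0 below wild type, against 8.23% and 9.20% of all tested genes. Rasgrp3, an exchange factor that activates Ras downstream of the antigen receptor, was at 55.9 and 52.2 RPKM in ZnF1, 63.8 and 82.8 in ZnF4, and 34.7 and 31.2 in wild-type libraries, with a log2 fold change of 1.13 in ZnF4 (adjusted p = 0.0116). Rasgrp2, an exchange factor for Rap, was higher in ZnF1 than in ZnF4 libraries, at 173 and 163 against 93.4 and 90.3 RPKM (0.87, adjusted p = 0.0328), with wild-type libraries at 141 and 103 RPKM. Of 23 genes of the ERK5, JNK and p38 cascades, Mapk11, which encodes a p38 kinase, fell in the ZnF4 mutant, and 22 did not pass. At an unadjusted p under 0.05, 2 of 23 lay above and 4 below wild type in ZnF4, against the same shares of all tested genes. Mapk11 was at 31.2 and 34.6 RPKM in ZnF1, 13.7 and 15.8 in ZnF4, and 31.8 and 25.4 in wild-type libraries (-0.93 in ZnF4, adjusted p = 0.0239). Mapk11 was also higher in ZnF1 than in ZnF4 (1.13, adjusted p = 0.00916). So was Map3k8, a kinase upstream of ERK, at 18.4 and 18.1 RPKM in ZnF1 and 8.6 and 10.7 in ZnF4 libraries (0.89, adjusted p = 0.0177). Map3k4, a kinase upstream of JNK and p38, was lower in ZnF1, at 10.0 and 9.7 RPKM in ZnF1 and 17.0 and 15.6 in ZnF4 libraries (-0.70, adjusted p = 0.0253).

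Of 12 tested genes for other inhibitors of Ras-ERK signalling, 0 passed against wild type by limma, with 3 of 12 at an unadjusted p under 0.05 in ZnF1 and 2 of 12 in ZnF4, where 11.9% and 17.4% of all tested genes were. Spry2, a feedback inhibitor of the Sprouty family, was lower in ZnF1 than in ZnF4 libraries, at 1.3 and 1.2 against 5.3 and 4.7 RPKM, with wild-type libraries at 3.4 and 4.0 (-1.65, adjusted p = 0.00510). Between the mutants Spry2 ran opposite to Dusp2 and Dusp3. In ZnF1 against wild type its limma log2 fold change was -1.26 (adjusted p = 0.0632). That was on the side of Dusp2 (-0.34) and opposite to Dusp3 (0.74), of which neither passed. Of 18 tested kinases and transcription factors downstream of MAP kinases, Rps6ka4, a nuclear kinase activated by ERK and p38, was higher in ZnF1 than in ZnF4, at 19.6 and 18.9 against 11.3 and 11.0 RPKM (0.76, adjusted p = 0.0162), and 0 passed against wild type by limma, with 3 of 18 at an unadjusted p under 0.05 in each mutant, against the same shares.

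Immediate early genes, many of them induced by MAP kinases, had a median log2 fold change of -0.41 in the ZnF4 mutant: 2 of 20 fell, 18 did not pass and 17 were negative, where 1.41% of all tested genes were called lower and 52.8% were negative. In the ZnF1 mutant their median was -0.35 and 15 of 20 were negative, as were 5200 of all 10322 tested genes. There 0 of 20 passed by limma. At an unadjusted p under 0.05, 2 lay above and 4 below wild type, against 6.48% and 5.45% of all tested genes. Between the mutants 0 of 20 passed by limma. At an unadjusted p under 0.05, 4 were higher and 2 lower in ZnF1, against 10.6% and 9.37% of all tested genes. Egr1 was at 21.5 and 18.8 RPKM in ZnF1, 22.9 and 20.2 in ZnF4, and 33.5 and 38.5 in wild-type libraries (-0.73 in ZnF4, adjusted p = 0.0390), and Fosb was at 1.4 and 1.4, 1.0 and 0.6, and 3.9 and 2.4 RPKM in the same order (-1.48 in ZnF4, adjusted p = 0.0454). Egr1 kept its direction but lost its call in 10 of 17 alternatives, with log2 fold changes between -0.83 and -0.63 over them and adjusted p between 0.0517 with the replicate number as a block and 0.275 without ZnF4 replicate 2. Fosb lost its call in 6 of the 16 alternatives that tested it. In ZnF1 against wild type the limma log2 fold change was -0.82 for Egr1 (adjusted p = 0.0819) and -0.91 for Fosb (adjusted p = 0.276). The summed level of 10 heat shock genes, which can rise when cells are handled, was 650 and 535 RPKM in ZnF1, 397 and 406 in ZnF4, and 491 and 504 in wild-type libraries. Most of each sum was Hsp90ab1, at 520 and 446, 334 and 351, and 404 and 439 RPKM in the same order. The sum was lowest in the ZnF4 libraries, as were the levels of Dusp1, Dusp2 and Dusp3, and its part in those results was not tested. Of the 8 heat shock genes tested, 2 lay wholly below wild type in ZnF4, as did 27.2% of all tested genes.

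**Figure D4:**
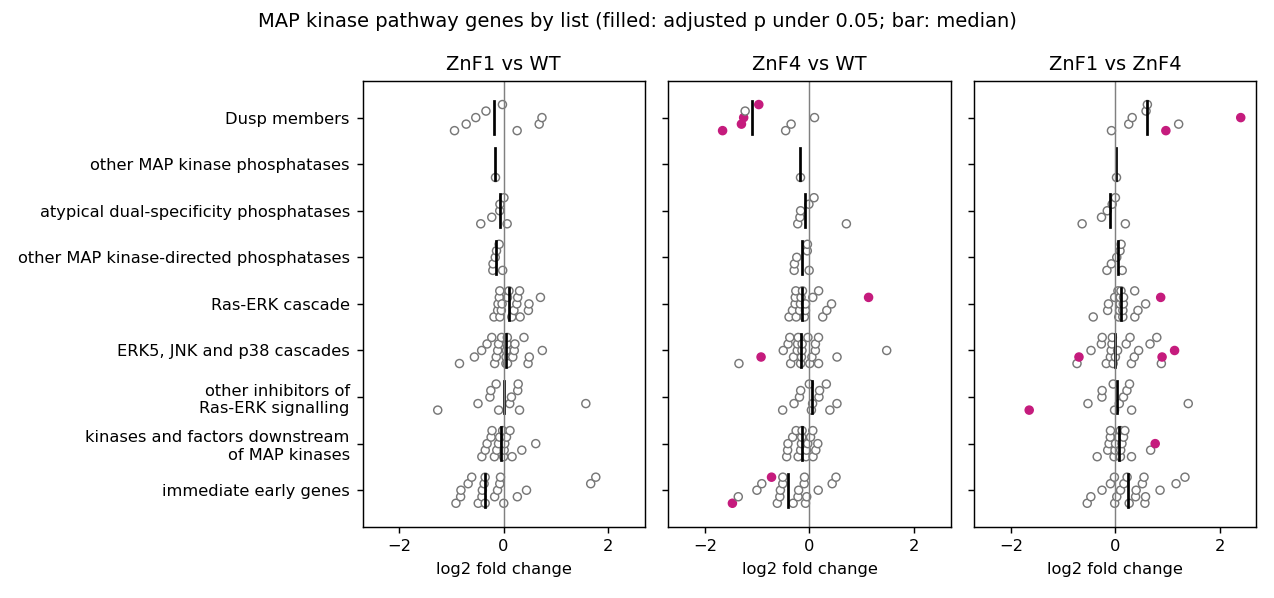
Log2 fold changes (horizontal axes, log2(RPKM + 0.5) scale) of the 8 dual-specificity phosphatase genes (top row) and of the tested genes of 8 MAP kinase pathway lists in 3 comparisons; each point is a gene, filled points have an adjusted p under 0.05 and bars are medians. In ZnF4 against wild type the top row has its median at -1.10, and the medians of the lists lie between -0.41 and 0.05.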

How the data were processed

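Poly(A)-enriched RNA of the 6 libraries had been prepared with an Illumina TruSeq kit, per the labels. The deposited table gives RPKM per RefSeq transcript, per the file headers, in steps of 0.1. The submitters' processing notes name the mm9 build and the tools TopHat and bedtools. Tool versions, the reads behind the scaling total and the strandedness are not given in the sources used here, so reads of overlapping or antisense transcripts cannot be told apart. The deposited lengths of transcripts were used only to look for whole reads. Whole reads could not be recovered: for short transcripts, at most 65.4% of values lay on whole reads within rounding. The depth is therefore unknown, and no counting interval is given. Of the table's rows, 1 had no name or values and was left out.

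The transcript with the highest mean stood for each gene name. Genes with a mean of at least 1 RPKM were fitted on log2(RPKM + 0.5) with limma 3.58.1 in R 4.3.3 (lmFit, eBayes with an intensity trend, 1 coefficient per genotype over all 6 libraries, 3 residual degrees of freedom). Tests are two-sided, adjusted by Benjamini-Hochberg over all 10322 genes, and called at an adjusted p under 0.05. The fit was tested on simulated data. All 8 members are named, with up to 4 called genes of each pathway list per comparison, or up to 2 with the smallest p where none was called, and for each called member the 5 genes nearest in pattern. The members and lists were chosen with earlier results of these data known. Alternatives were other pseudocounts, filters and scaling, summed transcripts, a replicate block, terms for Xist and for granulocyte and monocyte markers, fits of 2 genotypes, no trend, and leaving out each library. Sequences are RefSeq's for GRCm38.p6.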

Additional observations from a re-analysis of the deposited data

Results flagged for a closer look

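The change against wild type differed between the mutants, by the direct limma comparison of ZnF1 with ZnF4, for 2 members and 6 pathway genes. The difference on the log2 scale, ZnF1 minus ZnF4, was 2.40 for Dusp3 and 0.97 for Dusp2. It was 1.13 for Mapk11, 0.89 for Map3k8, 0.87 for Rasgrp2 and 0.76 for Rps6ka4. For 2 genes it was negative, -1.65 for Spry2 and -0.70 for Map3k4.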

How the results depend on the processing

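Over 17 alternatives, the 8 members' log2 fold changes kept their direction and their side of the threshold in 130 of 135 values for ZnF1 against wild type, 109 of 135 for ZnF4 against wild type and 121 of 135 for ZnF1 against ZnF4. Members called were 0, 4 and 2 in these comparisons, and pathway genes 0, 4 and 6. Values that passed in neither fit count as kept above. Over the 17 alternatives, the calls in ZnF4 against wild type were lost in 5 for Dusp2, 5 for Dusp3, 6 for Dusp5 and 8 for Dusp10. Between the mutants those of Dusp2 and Dusp3 were each lost in 3. With no filter on low values members called were 0 in ZnF4 and 0 between the mutants by limma (5 and 4 at an unadjusted p under 0.05), and pathway genes 1, 2 and 3. With a term for Xist, 2 members and 2 pathway genes were called in ZnF4. With a term for granulocyte and monocyte markers, 4 members and 11 pathway genes were called between the mutants. Fits of 2 genotypes called 8 pathway genes in ZnF4 and 3 between the mutants, and without a trend 1 was called in ZnF1. Leaving out each library gave 0 to 1, 0 to 4 and 0 to 3 members, and 0 to 8, 0 to 8 and 0 to 10 pathway genes. The cause of these changes was not tested. Over all genes, calls of 28, 330 and 493 became 104, 269 and 327 with no filter, 0, 171 and 476 with the Xist term, 7, 423 and 783 with the marker term, 0, 594 and 249 in fits of 2 genotypes, and 13 with quantile normalization in ZnF1; with a library left out they ranged from 0 to 512 (without ZnF1 replicate 1), 0 to 591 and 0 to 814. The called pathway genes kept their direction in each alternative that tested them. Directions reversed only for values that had not passed. With the marker term Dusp1 in ZnF1 was at 0.14 and Dusp6 between the mutants at 0.15. With a library left out, Dusp1 ranged from -0.54 to 0.50 and Dusp4 from -0.12 to 0.64 in ZnF1, Dusp4 from -0.73 to 0.029 and Dusp7 from -0.11 to 0.31 in ZnF4, and Dusp6 from -0.32 to 0.17 between the mutants. With the replicate number as a block, members called were 0, 4 and 2 and pathway genes 0, 3 and 6 (Egr1 lost its call, adjusted p = 0.0517). Replicate 1 minus replicate 2 correlated across genes with r = 0.21 between ZnF1 and ZnF4, 0.28 between ZnF1 and wild type and -0.03 between ZnF4 and wild type. The last is not over 0.1 and no label ties the numbers to a shared source, so they were not taken to pair the libraries; replicate 2 of both mutants shares the absence of Xist.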
